A study of Homo sapiens with 8 samples.

Results

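The 17 runs described here were chosen by peak coverage: every 5 kb bin in them was at least 50% covered by listed H3K27me3 peaks in both replicate 2 libraries, and had no covered base in either replicate 1 library. Adjacent bins of that kind on chromosomes 1 to 22 were joined, and runs of at least 3 bins were kept. The 17 runs spanned 0.28 Mb, against 9714 runs of at least 3 bins that were at least 50% covered in both replicate 2 libraries, whatever replicate 1 showed. In all, 13059 such runs were at least 50% covered in 1 or more of the 4 libraries, and 2244 in all 4.

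H3K27me3 was profiled by chromatin immunoprecipitation and sequencing in MOLM14, a human line from an acute myeloid leukaemia with a KMT2A fusion and a FLT3 internal tandem duplication. Cells were given AC220 (quizartinib, an inhibitor of the FLT3 tyrosine kinase) or its solvent DMSO for 24 h. The 4 immunoprecipitated libraries were AC220 2, DMSO 2, AC220 1 and DMSO 1, 2 per treatment, each with an input library that was not analysed here. All came from the same line, with a spike-in of Drosophila S2 cells that went in before lysis. The labels do not say whether libraries of the same treatment were separate cultures.

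H3K27me3 is the histone mark placed by Polycomb repressive complex 2, whose EZH2 or EZH1 subunit methylates lysine 27 of histone H3. It spreads in broad domains over silent developmental genes, and lies at a lower level over much of the remaining silent genome. A peak caller lists a weakly marked stretch only where its enrichment passes a threshold in that library.

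The libraries differed in how much of the genome their peaks covered. AC220 2 covered 17.1% and DMSO 2 covered 20.3% of chromosomes 1 to 22, against 6.64% in AC220 1 and 8.02% in DMSO 1. AC220 2 held 138045 peaks and DMSO 2 held 115581, against 104089 in AC220 1 and 104396 in DMSO 1. The replicate 2 libraries thus stood apart from the replicate 1 libraries under both treatments. The lists hold no reads, so depth is unknown. The wider coverage of the replicate 2 lists goes together with the rule, and its part in the runs was not tested.

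Absence from replicate 1 was uncommon where replicate 2 was covered. Of the 576216 bins of chromosomes 1 to 22, 94192 were at least 50% covered in AC220 2, 113878 in DMSO 2, and 85843 in both. Replicate 1 peaks touched 81950 of those 85843 bins: 69738 (81.2%) in both replicate 1 libraries, and 12212 in only 1. The remaining 3893 bins, 4.54% of the 85843, met the rule. They were 0.676% of all bins. In the other direction, the share of bins at least 50% covered in both replicate 1 libraries with no base in replicate 2 was 0% (0 bins).

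The same rule between treatments picked almost no bins. It needs a replicate 1 library at least 50% covered where a replicate 2 library has no base. The replicate 2 lists covered more of the genome, so few bins could meet it. The counts therefore do not measure how far the treatments differ. Bins at least 50% covered in both AC220 libraries and untouched in both DMSO libraries made up 0% of all bins (0 bins). Bins at least 50% covered in both DMSO libraries and untouched in both AC220 libraries made up 0.000868% (5 bins, in no run of 3).

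Most bins that met the rule stood alone. Of the 3893, 3483 were isolated and 354 lay in 177 stretches of 2 bins. The 17 runs held the other 56, which is 1.44% of the bins that met the rule. They comprised 14 runs of 15 kb, 1 of 20 kb and 2 of 25 kb.

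The 2 runs of 25 kb lay in 1q42.2 and 15q21.1. The 1q42.2 run (chr1:234410001-234435000; positions count from 1, on GRCh37) was 100% covered in AC220 2 and 93.0% covered in DMSO 2. A peak of 30279 bp spanned it in AC220 2, and a peak of 24050 bp covered most of it in DMSO 2. Each was the widest peak of its library that met no replicate 1 peak. The 15q21.1 run (chr15:48555001-48580000) was 69.8% covered in AC220 2 and 94.7% covered in DMSO 2, and it was broken into 5 peaks in AC220 2 and 2 peaks in DMSO 2. 15q21.1 is the band of FBN1, which encodes the matrix protein fibrillin. No gene annotation of the files' build was used here, so genes are named only as background for a band, and whether a run lies in one was not looked up.

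The 20 kb run was in 3p14.2 (chr3:62260001-62280000), the band of the fragile-site gene FHIT. It was 73.1% covered by 5 peaks in AC220 2 and 100% covered in DMSO 2, where 1 peak of 38731 bp held it. That was the widest peak holding any of the runs.

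The other 14 runs were 15 kb long. On chromosomes 2, 3 and 5 they were chr2:89385001-89400000 in 2p11.2 (the band of the immunoglobulin kappa genes), chr3:4135001-4150000 in 3p26.1, chr3:64685001-64700000 in 3p14.1, chr5:16480001-16495000 in 5p15.1 and chr5:124030001-124045000 in 5q23.2. A pair on chromosome 8, chr8:2435001-2450000 and chr8:2470001-2485000, lay in 8p23.2, the band of the large neuronal gene CSMD1. Those were the only runs to share a band. Further runs were chr11:95280001-95295000 in 11q21, the band of the Notch coactivator gene MAML2, and chr12:128930001-128945000 in 12q24.32.

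On the remaining chromosomes, chr15:96875001-96890000 lay in 15q26.2, the band of NR2F2, an orphan nuclear receptor that acts in development. The run chr16:54970001-54985000 lay in 16q12.2, the band of the homeobox genes IRX3 and IRX5, which are known Polycomb targets in other cells. The last were chr21:33550001-33565000 in 21q22.11, chr22:23805001-23820000 in 22q11.23 (the band of BCR) and chr22:48625001-48640000 in 22q13.32.

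**Figure D1:**
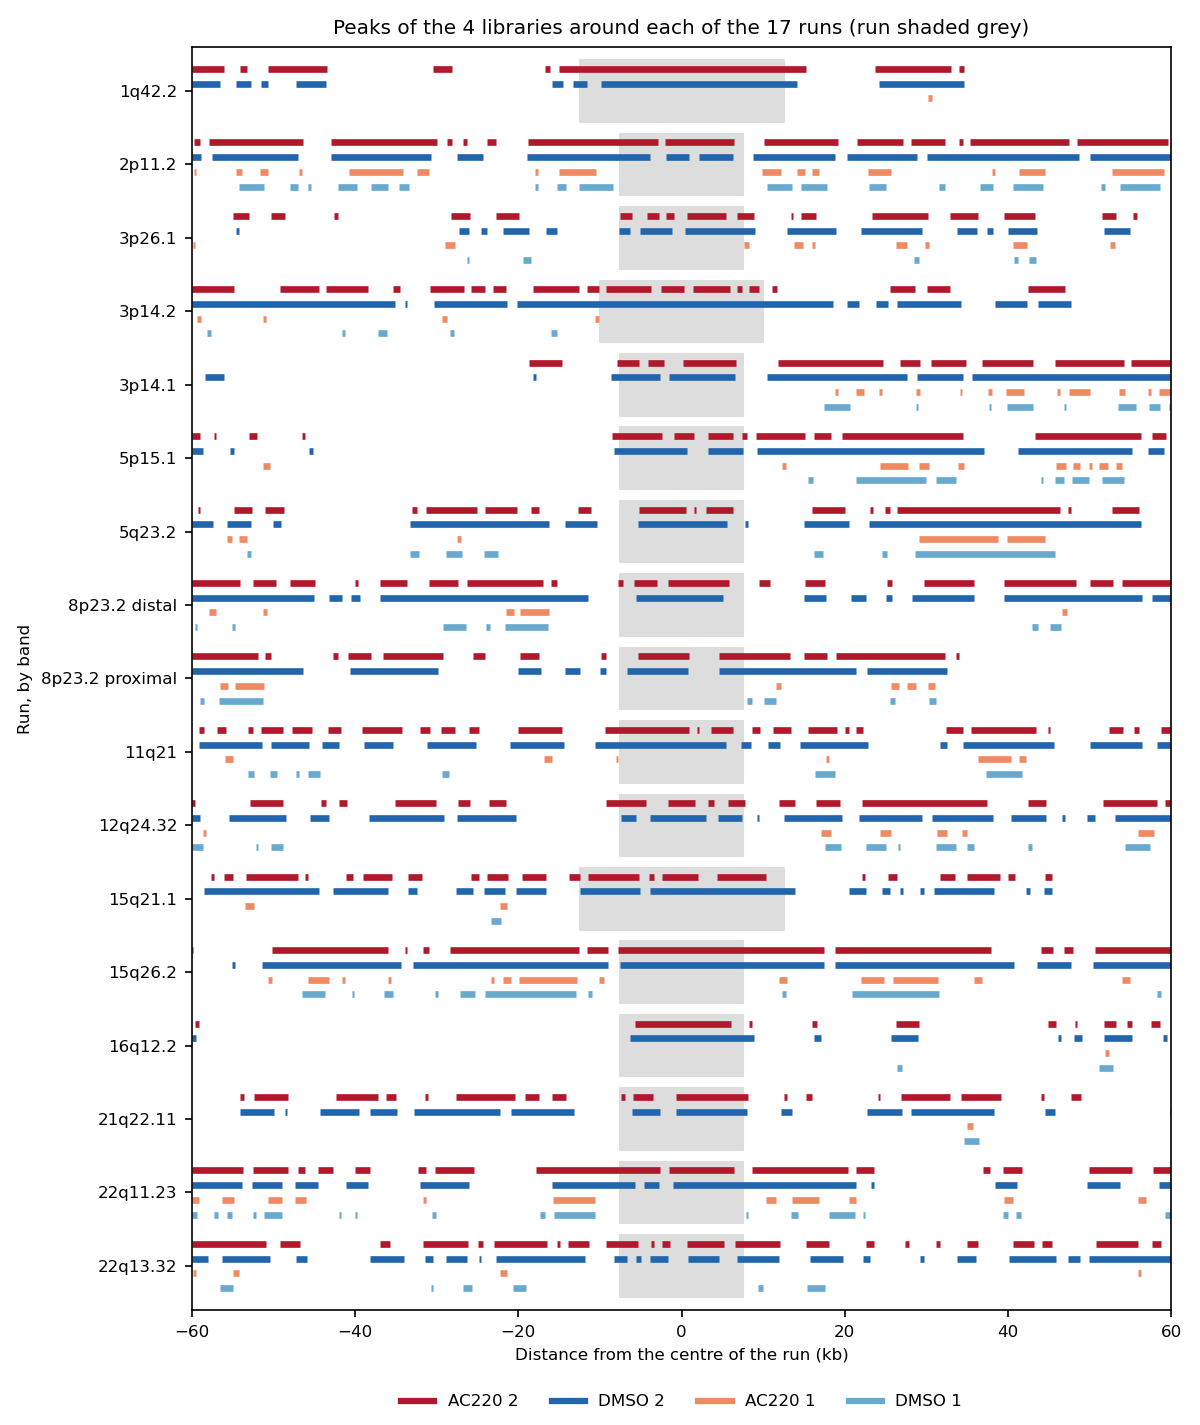
Peaks of AC220 2, DMSO 2, AC220 1 and DMSO 1 (4 tracks from top to bottom in each row) within 60 kb of the centre of each of the 17 runs; the horizontal axis is the distance from that centre in kb and the grey box is the run. No replicate 1 peak enters a grey box, which the rule requires, while short replicate 1 peaks lie outside it in most rows.

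Within the runs, the covered share was 59.99% to 100% in AC220 2 (median 72.0%) and 53.9% to 100% in DMSO 2 (median 81.0%). It was 0% in both replicate 1 libraries, as the rule fixes. AC220 2 was the less covered library in 12 of the 17 runs, the more covered in 4, and equal in 15q26.2. The median difference, AC220 2 minus DMSO 2, was -10.6 percentage points.

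The difference was lowest in 3p14.2, at -27.0 points, and in 15q21.1, at -24.9 points. It was 16.0 points in 2p11.2, where AC220 2 covered 86.6% and DMSO 2 covered 70.6%. It was 6.96 points in 1q42.2, 6.63 in 22q13.32 and 4.25 in 22q11.23. A lower share in AC220 2 was also usual outside the runs: it held in 71.8% of the 9714 replicate 2 runs, and in 70.0% of the 6147 that were 3 to 5 bins long. With 1 library per treatment on this side of the rule, the difference has no replicate check.

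The other runs of lower AC220 2 coverage filled the range between. On the short arm of chromosome 3, 3p26.1 was 61.7% covered in AC220 2 and 81.0% in DMSO 2, and 3p14.1 was 71.1% covered in AC220 2 and 86.4% in DMSO 2. On chromosome 5, 5p15.1 was 72.0% covered in AC220 2 and 82.8% in DMSO 2, and 5q23.2 was 61.7% covered in AC220 2 and 72.4% in DMSO 2. In these 4 runs AC220 2 had 3 to 5 peaks and DMSO 2 had 1 to 3, so the same stretch was cut into more pieces in AC220 2.

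The 8p23.2 pair was alike in DMSO 2, with 71.6% of the distal run and 70.1% of the proximal run covered, and less so in AC220 2, with 71.0% of the distal and 60.9% of the proximal run covered. Coverage was 75.2% in AC220 2 and 87.6% in DMSO 2 for 11q21, and 78.2% in AC220 2 and 92.2% in DMSO 2 for 16q12.2. For 21q22.11 it was 73.2% in AC220 2 and 77.5% in DMSO 2, an AC220 2 minus DMSO 2 difference of -4.33 points, the smallest after 8p23.2 distal (-0.68 points) among the runs lower in AC220 2. The values of the 2 libraries overlapped in range over the 17 runs.

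**Figure D2:**
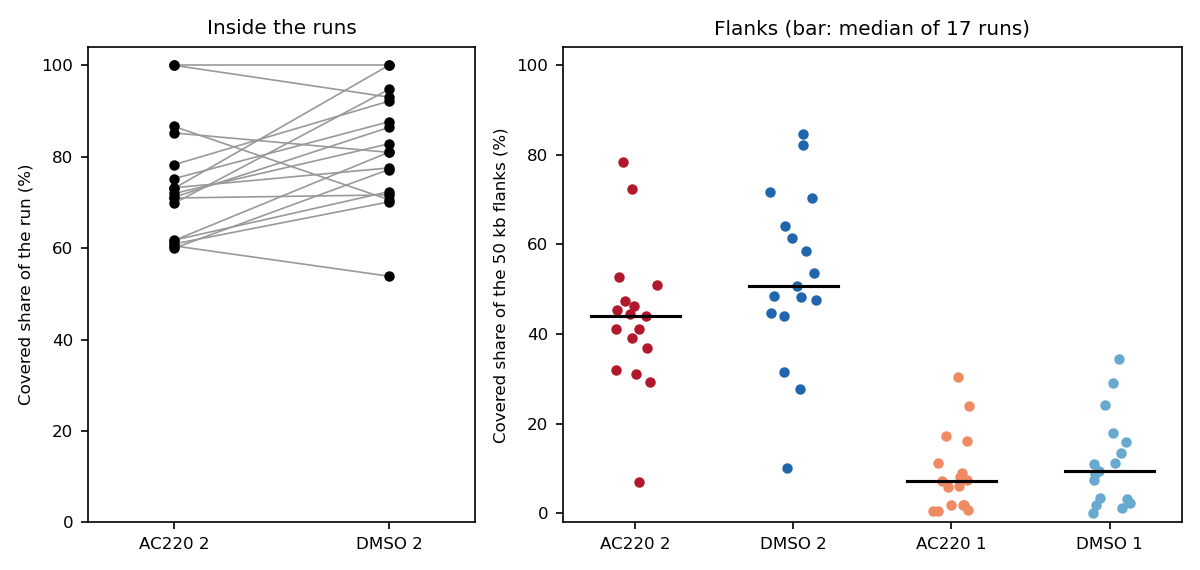
Left, covered share of each of the 17 runs (%) in AC220 2 and DMSO 2, a line joining the values of 1 run. Right, covered share (%) of the 50 kb on each side of every run in the 4 libraries, a point per run and a bar at the median: 44.1% in AC220 2, 50.8% in DMSO 2, 7.19% in AC220 1 and 9.38% in DMSO 1.

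The peaks that held the runs had a wider median than their lists and a narrower one than those of the core. The rule asks for coverage over at least 3 bins, and choosing peaks by overlap favours long ones. Their width beside the whole lists is therefore partly fixed by selection. In AC220 2 their lower quartile, 1345 bp, lay below the median of the whole list. In AC220 2, 52 peaks overlapped the 17 runs, with a median width of 3346 bp and a range of 223 to 30279 bp. In DMSO 2, 36 peaks did, with a median of 7160.5 bp and a range of 560 to 38731 bp. In the whole lists the median peak was 1625 bp wide in AC220 2 and 2348 bp in DMSO 2. Peaks holding a bin at least 50% covered in all 4 libraries, called a core bin from here on, were wider, with medians of 12169 bp in AC220 2 and 15874.5 bp in DMSO 2.

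The widest peak of a run had a median of 7434 bp in AC220 2 and 15043 bp in DMSO 2. A peak of at least 10 kb overlapped 6 of the runs in AC220 2 and 11 in DMSO 2. The widest peak of the run was narrower in AC220 2 in 12 of 17 runs. Peaks of the whole list were narrower in AC220 2 as well, with a median of 1625 bp against 2348 bp in DMSO 2. A lone peak overlapped the run in 3 runs in AC220 2 (1q42.2, 15q26.2 and 16q12.2), and in 5 runs in DMSO 2 (3p14.2, 5q23.2, 8p23.2 distal, 15q26.2 and 16q12.2). The most broken run was 22q13.32, with 5 peaks in AC220 2 and 5 in DMSO 2, the widest of 5436 bp in AC220 2 and 5238 bp in DMSO 2.

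The runs had been called faint, and the deposited values bear on that word. The fold of a peak is the authors' own value, relative to the background used in the call of its library. It was compared only within a list. Averaged over the covered bases of a run, it was 2.08 to 2.72 in AC220 2 (median 2.23) and 2.08 to 3.22 in DMSO 2 (median 2.28). The median fold of peaks holding a core bin was 2.55 in AC220 2 and 2.62 in DMSO 2.

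Among peaks of at least 5 kb, whose median fold was 2.39 in AC220 2 and 2.36 in DMSO 2, the median run stood at the 20.1 percentile in AC220 2 and the 36.7 percentile in DMSO 2. Of the 17 runs, 2 in AC220 2 and 5 in DMSO 2 lay above the median of those wide peaks. Against the whole list, whose median fold was 2.13 in AC220 2 and 2.103 in DMSO 2, the order was different: 16 runs in AC220 2 and 15 in DMSO 2 lay above the median. These run values weight peaks by their covered bases, which favours wide peaks, whereas the list median counts each peak once. Counted once each, the peaks holding the runs had a median fold of 2.16 in AC220 2 and 2.23 in DMSO 2. The word therefore describes the runs beside all peaks of at least 5 kb. It does not describe them beside the peaks of at least 5 kb that met no replicate 1 peak. Those had a median fold of 2.16 in AC220 2 and 2.12 in DMSO 2. The median run, weighted by covered bases, was higher, at 2.23 in AC220 2 and 2.28 in DMSO 2. How far the runs stand above the whole list depends on the weighting.

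The least faint run was 15q26.2. A peak of 25204 bp held it in AC220 2, at a fold of 2.72, which is the 96.4 percentile of that list. In DMSO 2 a peak of 25009 bp held it, at a fold of 3.22 and the 98.7 percentile. It was 100% covered in both libraries, and its -log10 q was 3.49 in AC220 2 and 5.62 in DMSO 2, the highest of the 17 in each.

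The runs next in rank by the lower of the AC220 2 and DMSO 2 fold percentiles followed at a distance. The fold of 16q12.2 was 2.44 in AC220 2 and 2.55 in DMSO 2, at the 88.0 percentile in AC220 2 and the 90.8 percentile in DMSO 2. The fold of 22q11.23 was 2.39 in AC220 2 and 2.38 in DMSO 2. Then came 15q21.1 with 2.28 in AC220 2 and 2.34 in DMSO 2, and 22q13.32 with 2.26 in AC220 2 and 2.25 in DMSO 2.

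The run with the lowest fold differed by library. It was 5p15.1 in AC220 2, at 2.08, and 5q23.2 in DMSO 2, at 2.08. Their values in the other library were 2.24 in AC220 2 for 5q23.2 and 2.29 in DMSO 2 for 5p15.1, so neither run ranked low in both. The median run had a -log10 q of 1.93 in AC220 2 and 2.24 in DMSO 2, where the lowest value listed in any library was 1.00.

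**Figure D3:**
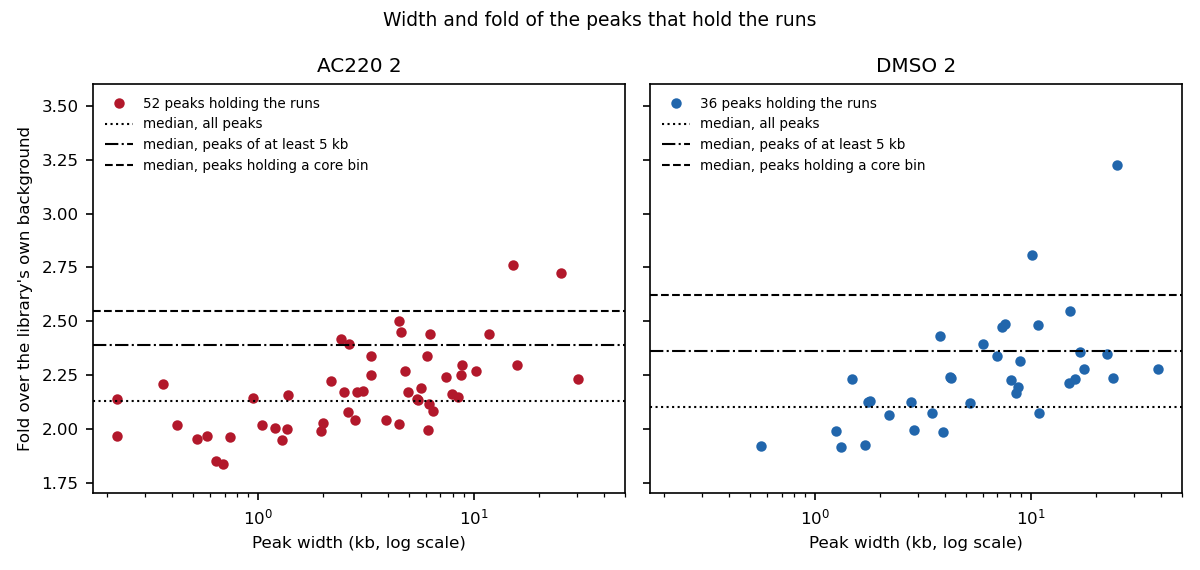
Width (kb, log scale) and deposited fold of the peaks that overlap the 17 runs, a point per peak: 52 in AC220 2 and 36 in DMSO 2. The fold is over the background used in each library's call, which the axis title names the library's own background. Horizontal lines give the medians of all peaks (2.13 in AC220 2, 2.103 in DMSO 2), of peaks of at least 5 kb and of peaks holding a core bin (2.55 in AC220 2, 2.62 in DMSO 2); most points lie between the lowest and the highest of those lines or below them.

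Core bins numbered 23238. No run adjoined one (0%), against 5.01% of the bins that met the rule and 4.21% of all bins outside the core. Of the runs, 52.9% lay within 50 kb of a core bin, against 44.4% of the bins that met the rule. The share within 50 kb was 73.0% for other non-core bins at least 50% covered in both replicate 2 libraries. It was 22.2% for all bins outside the core. The gap from a run to the nearest core bin ranged from 5 to 475 kb, with a median of 45 kb and quartiles of 20 and 165 kb. The nearest runs were 15q26.2 and 22q11.23, each 5 kb away, and 8p23.2 distal, 10 kb away. Between these lay 5p15.1 at 15 kb, 5q23.2 at 20 kb, 2p11.2 at 25 kb, 3p14.1 and 11q21 at 30 kb each, 8p23.2 proximal at 45 kb, 1q42.2 at 70 kb, and 12q24.32 and 15q21.1 at 150 kb each. The 5 farthest were 22q13.32 at 475 kb, 3p26.1 at 465 kb, 16q12.2 at 350 kb, 21q22.11 at 215 kb and 3p14.2 at 165 kb.

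Bins that met the rule had a median gap of 70 kb. Other bins at least 50% covered in both replicate 2 libraries, and not core, were nearer, with a median of 15 kb. All bins outside the core had a median of 255 kb. The rule keeps a run from holding a core bin, so these distances are given with no test.

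**Figure D4:**
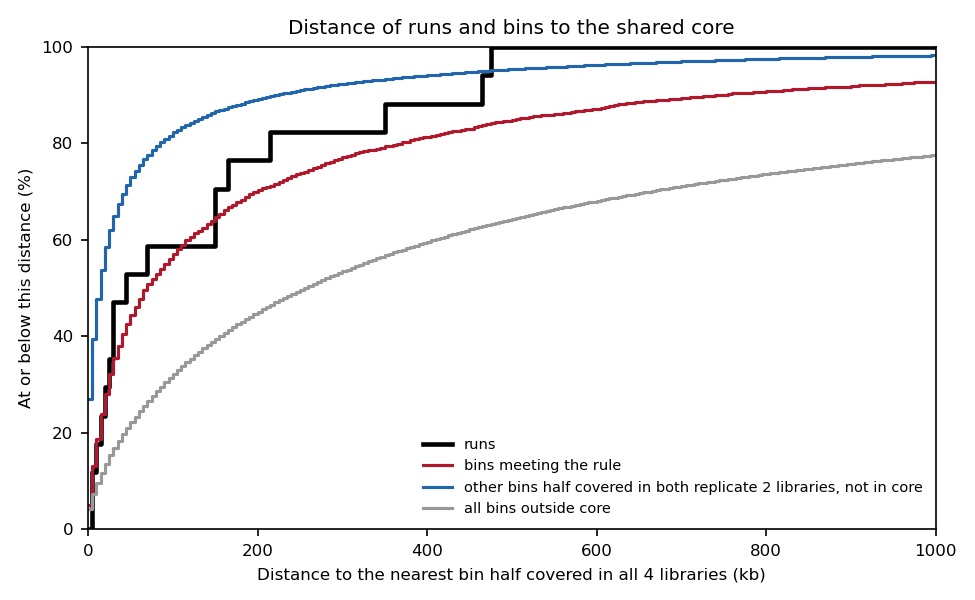
Share (%) of each set at or below a given distance in kb from the nearest core bin, for the 17 runs, the 3893 bins that met the rule, the other non-core bins at least 50% covered in both replicate 2 libraries, and all bins outside the core. The medians are 45 kb for the runs, 70 kb for the bins that met the rule, 15 kb for the other replicate 2 bins and 255 kb for all bins outside the core.

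On this grid, 1 of the 52 peaks holding the runs in AC220 2, and 1 of the 36 in DMSO 2, also held a core bin. In the whole lists, 9.13% of AC220 2 peaks and 9.40% of DMSO 2 peaks held one. The rule keeps core bins out of the runs, which limits such reach. Only in 22q11.23 did a peak that overlapped a run also hold a core bin, in AC220 2 (15143 bp, fold 2.76) and in DMSO 2 (10069 bp, fold 2.81). Each entered the run from its lower-numbered end. That is 5.88% of the runs, against 20% on the grid moved by 2.5 kb, and 23.5% when a core bin needs only any covered base in all 4 libraries, in AC220 2 and in DMSO 2 alike. In 15q26.2 the holding peaks ended short of the core bin 5 kb away.

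Replicate 1 peaks lay close to many runs, but no such distance was measured for other regions. Replicate 1 peaks touched 81950 of the 85843 bins that reached the coverage threshold in both replicate 2 libraries. Whether the runs lay nearer to replicate 1 peaks than other regions covered in replicate 2 was not tested. The nearest replicate 1 peak was 0.118 to 27.2 kb from the edge of the run, with a median of 4.79 kb, and it was within 5 kb in 9 of the 17 runs. It was 0.118 kb away in 3p14.2, 0.178 kb in 3p26.1 and 0.262 kb in 11q21. The 3 runs with none within 10 kb were 1q42.2 (17.7 kb), 16q12.2 (18.8 kb) and 21q22.11 (27.2 kb). Replicate 2 peaks that overlapped a run also met a replicate 1 peak outside it in 7 runs in AC220 2 and 8 in DMSO 2. By peak, 7 of 52 did in AC220 2 and 9 of 36 in DMSO 2, a lower share than in the lists. In the whole lists, 48.4% of AC220 2 peaks and 49.99% of DMSO 2 peaks met no replicate 1 peak. Among peaks of at least 5 kb, 395 of 26606 in AC220 2 and 1780 of 31967 in DMSO 2 met none. The rule keeps replicate 1 peaks out of the runs, which limits such contact.

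The distance between the nearest replicate 1 peaks on either side of a run had a median of 59.2 kb. It was 18.2 kb in 2p11.2, where the run filled most of the gap, and 347 kb in 21q22.11. Within that gap in 21q22.11, peaks covered 18.7% in AC220 2 and 23.8% in DMSO 2.

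Of the 17 runs, 10 were complete stretches of replicate 2 bins, with uncovered or less covered bins on both sides. The other 7 were pieces of a longer replicate 2 stretch that replicate 1 peaks touched elsewhere. The longest such stretch was 65 kb and held the 15q26.2 run; it was 29.7% covered in AC220 1 and 37.7% covered in DMSO 1. A stretch of 40 kb held the 22q11.23 run, and was 26.1% covered in AC220 1 and 25.5% covered in DMSO 1. In 22q13.32 the longer stretch was 20 kb, 0% covered in AC220 1 and 2.83% covered in DMSO 1.

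The flanks, the 50 kb on each side of a run, were not used by the rule, though they include the ends of peaks that hold a run. Over all 17 runs their covered share was 43.5% in AC220 2, 52.9% in DMSO 2, 8.83% in AC220 1 and 11.5% in DMSO 1. The flanks of the 8p23.2 runs overlap each other, so some bases count in both. Every library covered the flanks more than its chromosomes as a whole: by 2.54 times in AC220 2, 2.60 in DMSO 2, 1.33 in AC220 1 and 1.43 in DMSO 1.

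The flanks were 26.2% ± 24.5 covered with AC220 and 32.2% ± 29.3 covered with DMSO (SD, n = 2 libraries each). The log2 ratio of AC220 over DMSO was -0.33, two-sided exact permutation p = 0.667, where 2 libraries against 2 cannot give a p below 0.333. The treatment difference was smaller than the spread between libraries of 1 treatment. Within replicate numbers the log2 ratio was -0.28 in replicate 2 and -0.38 in replicate 1, beside -0.25 in replicate 2 and -0.27 in replicate 1 over chromosomes 1 to 22. Without AC220 1 the ratio was 0.82 and without DMSO 2 it was 0.77; each removal leaves the treatments with unequal replicate numbers.

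Run by run, the flanks were less covered in AC220 2 than in DMSO 2 in 15 of 17 runs, and less covered in AC220 1 than in DMSO 1 in 13 of 17. Over chromosomes 1 to 22, AC220 2 covered 17.1% against 20.3% in DMSO 2, and AC220 1 covered 6.64% against 8.02% in DMSO 1. The counts thus go the way of the whole lists. Runs are not replicates of a treatment, and no such count was made for other regions. The least covered flanks were those of 16q12.2, at 7.08% in AC220 2, 10.2% in DMSO 2, 0.495% in AC220 1 and 2.42% in DMSO 1. The most covered in replicate 2 were those of 2p11.2, at 78.3% in AC220 2 and 82.2% in DMSO 2, with 30.3% in AC220 1 and 34.5% in DMSO 1, and those of 15q26.2, at 72.4% in AC220 2, 84.6% in DMSO 2, 23.9% in AC220 1 and 29.2% in DMSO 1. The flanks of 1q42.2 held 0% in DMSO 1 and 0.474% in AC220 1, beside 31.9% in AC220 2 and 27.8% in DMSO 2.

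The flank peaks of replicate 1 were close to their lists in width. AC220 1 had 105 peaks there, with a median width of 921 bp against 998 bp in its whole list, and DMSO 1 had 109, with a median of 1039 bp against 1214 bp. A -log10 q of at least 2 was listed for 7.62% of them in AC220 1 and 10.1% in DMSO 1, against 13.2% of the whole list of AC220 1 and 16.5% of that of DMSO 1. In replicate 2 the flanks held 205 peaks in AC220 2, with a median width of 2154 bp against 1625 bp in its whole list, and 145 in DMSO 2, with a median of 3676 bp against 2348 bp.

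The runs were spread over 11 of 22 chromosomes, with 3 on chromosome 3 and 2 each on chromosomes 5, 8, 15 and 22. As a share of the chromosome, run bins were most frequent on chromosome 22 (0.0585% of its bins), chromosome 15 (0.0390%) and chromosome 21 (0.0312%). The 11 chromosomes without a run were 4, 6, 7, 9, 10, 13, 14, 17, 18, 19 and 20. With 17 runs, 1 run more or less moves these ranks.

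The 3893 bins that met the rule were spread differently. Their share of a chromosome's bins was highest on chromosome 3 (0.917%), chromosome 18 (0.839%) and chromosome 8 (0.827%), and lowest on chromosome 19 (0.3298%), chromosome 17 (0.394%) and chromosome 21 (0.416%). Across the 22 chromosomes, this share showed little relation to the share of core bins (Pearson r 0.06, Spearman rho 0.05). As a share of the bins at least 50% covered in both replicate 2 libraries, it ran against the share of core bins (r -0.78, rho -0.86). The points share the same 4 libraries and the same set of covered bins, so these are descriptions.

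**Figure D5:**
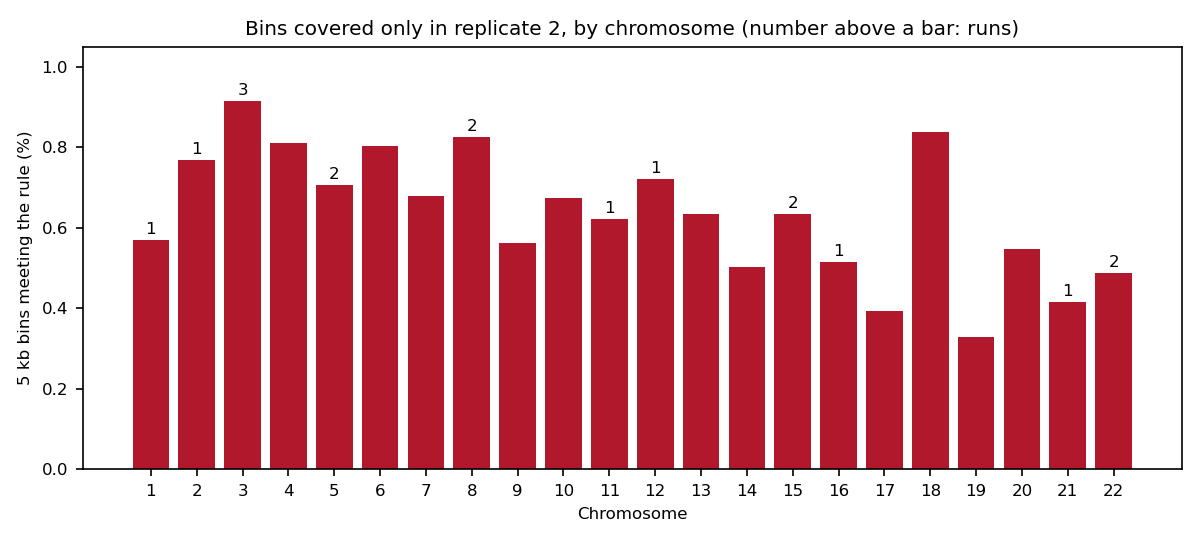
Share (%) of the 5 kb bins of each chromosome that met the rule, with the number of runs above the bar where there is any. Chromosome 3 has the highest share, 0.917%, and 3 runs; chromosome 18 has 0.839% and no run.

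The 5 bands with the highest share of bins in runs were 22q13.32 (1.5%), 8p23.2 (0.750%), 1q42.2 and 22q11.23 (0.625% each) and 15q21.1 (0.532%). Every band with a run held 1, apart from 8p23.2, so the order largely follows band length. The 22q13.32 band is 1 Mb long and has 3 run bins. The 2p11.2 band, of 7.2 Mb, has 3 as well, which is 0.208% of its bins. In 22q13.32, core bins were 0.5% of the band, and 5% of its bins met the rule. In 1q42.2 the order was reversed, with 10.0% core bins and 1.38% of bins that met the rule.

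By Giemsa class, 7 runs lay in unstained bands (gneg), 7 in bands of middle stain (gpos50) and 3 in the next darker class (gpos75). Middle-stain bands held 41.1% of the run bins, a share that rests on 7 runs, against 17.2% of the bins that met the rule, 17.4% of bins at least 50% covered in both replicate 2 libraries, 16.5% of core bins and 13.3% of all bins. Unstained bands held 39.3% of the run bins, against 44.9% of the bins that met the rule, 54.3% of bins at least 50% covered in both replicate 2 libraries, 60.2% of core bins and 42.4% of all bins. The darkest bands (gpos100) held no run, but 14.3% of the bins that met the rule, against 7.17% of bins at least 50% covered in both replicate 2 libraries, 4.25% of core bins and 16.0% of all bins.

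Several runs stood close to the threshold of 50%. The lowest bin was under 55% in AC220 2 or DMSO 2 in 9 of 17 runs. The members just inside were 12q24.32, with a lowest bin of 50.4% in AC220 2 and 63.3% in DMSO 2, and 22q13.32, with 51.2% in AC220 2 and 51.0% in DMSO 2. The nearest outside were chr2:176395001-176415000 in 2q31.1, with a lowest bin of 58.2% in AC220 2 and 48.5% in DMSO 2, and chr1:56330001-56345000 in 1p32.2, with 48.4% in AC220 2 and 78.7% in DMSO 2. At a threshold of 45%, 8 more runs entered, 6 of them held out at 50% by AC220 2 and 2 by DMSO 2.

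The set depended on where bins began and on weak peaks. With the grid moved by 2.5 kb, 10 runs were found, of which 5 overlapped the 17: 1q42.2, 3p14.2, 15q21.1, 15q26.2 and 22q11.23. Requiring bins to be 100% covered left 1q42.2 and 15q26.2. With peaks of -log10 q at least 2 in every list, 2865 runs of 55.5 Mb met the rule, and they overlapped 4 of the 17 (1q42.2, 8p23.2 proximal, 15q26.2 and 16q12.2).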

How the data were processed

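Per the submitters' processing notes, BWA 0.7.10-r789 and MACS2 2.1 were used; roles and settings were not stated there. The authors deposited 1 broad peak list per immunoprecipitated library, so peaks were called per library. Each list gives positions, a score, a fold, a p-value and a q-value, the last 2 as -log10, all deposited values of the authors. The fold ratio is relative to the background used in that library's call. Use of inputs or Drosophila reads in the calls, and the build, were not given in the sources used here. Names of contigs and their peak ends were those of GRCh37 (highest chromosome 1 peak end 249236554, chromosome length 249250621). Lengths came from GenomeInfoDb 1.38.1 and bands from circlize 0.4.16.

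Groups were taken from the sample titles. Coverage per 5 kb bin, runs, gaps to core bins, holding peaks and flanks were computed in pandas 2.3.3 and numpy 2.4.6 under Python 3.11.15, with figures by matplotlib 3.10.9, and the run finder was tested on simulated peak lists. The fold and -log10 q of a run are means over its covered bases. Only the flanks had a test, an exact permutation over the 4 libraries, whose p measures the spread between libraries, which may be technical. The members and named regions (the 10 longest runs, the 5 farthest from core, the 5 by lower fold percentile, and leading bands and chromosomes) were chosen with earlier results of these data known. Alternatives were other grids, bin sizes, thresholds, run lengths, peak filters, core definitions and flank widths, and leaving out each library. Planned counts for crossed pairs of libraries were not run. No sequence is printed, since no genome of that build was used here.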

Additional observations from a re-analysis of the deposited data

How the results depend on the processing

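The number and length of runs moved under every setting tried for finding them. The values with 17 runs and 0.28 Mb became 10 runs and 0.17 Mb (median gap 205 kb) on the grid shifted by 2.5 kb; 2 and 0.043 Mb with 1 kb bins; 8 and 0.18 Mb (gap 250 kb) with 10 kb bins; 206 and 3.29 Mb at 25% covered; 3 and 0.05 Mb at 75%; 2 and 0.035 Mb at 100%; 194 and 2.05 Mb for runs of 2 bins or more; 2 and 0.05 Mb for runs of 5 or more; 51 and 0.83 Mb when up to 10% of a bin could be covered in replicate 1; and 2865 and 55.52 Mb with peaks of -log10 q at least 2. Replicate 2 lists trimmed to the length of the replicate 1 lists left 1 run of 0.015 Mb, 15q26.2, with a gap of 5 kb. Filtering only replicate 1 at -log10 q of at least 2, an alternative chosen after seeing the data, gave 5516 runs of 112.6 Mb that overlapped all 17. The cause of these shifts was not tested. Leaving out a library in turn gave 33 to 262 runs of 0.55 to 4.31 Mb with median gaps of 17.5 to 175 kb, a reach into core of 6.06% to 14.1% of runs for AC220 2 and of 2.67% to 21.2% for DMSO 2; the share for a library left out has no value.

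The main median gap of 45 kb was 10 kb when a core bin needed only any covered base in all 4 libraries, and 715 kb when core bins had to lie in runs of 3. The share of runs whose peaks hold a core bin, 5.88% in AC220 2 and in DMSO 2, was 0% in each with 1 kb bins, 10 kb bins, 75% or 100% covered, runs of 5, trimmed lists, and core bins in runs of 3. It was higher in other settings: 20% in each on the shifted grid, 23.5% in each with any covered base in a core bin, 15.7% in AC220 2 and 19.6% in DMSO 2 with up to 10% of a bin covered in replicate 1, 12.6% in AC220 2 and 16.9% in DMSO 2 with peaks of -log10 q at least 2, and 9.90% in AC220 2 and 13.0% in DMSO 2 with that filter on replicate 1 alone. It was 3.40% in AC220 2 and 4.85% in DMSO 2 at 25% covered, and 5.67% in AC220 2 and 10.3% in DMSO 2 for runs of 2 bins or more. The flank log2 ratio of -0.33 ranged from -1.48 to 0.82 when a library was left out, with 0.82 without AC220 1 and 0.77 without DMSO 2; it was -0.38 and -0.29 with flanks of 25 and 100 kb and -1.07 with peaks of -log10 q at least 2. The paired fit with a replicate block gave -0.33; 2 pairs allow no p below the usual threshold. Depth is unknown.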

Other observations

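The 177 stretches of 2 adjoining bins, which were 1 bin short of a run, covered 1.77 Mb in 136 bands of 21 chromosomes. Their median gap to the nearest core bin was 85 kb, and the highest was 4305 kb. AC220 2 was the less covered library in 142 of the 177 stretches. It was so in 68.1% of the single bins that met the rule, which include the bins of these stretches. It was so in 71.8% of all replicate 2 runs of at least 3 bins. Bins, stretches and runs differ in length, so these shares are not like for like. The bands with the most were 11p14.2 and 3p14.2, with 4 each, and 15 stretches lay in a band that holds a run. In 11p14.2, 6.36% of bins met the rule, the highest share of any band of at least 1 Mb; it held no core bin and no run.

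Peaks of at least 5 kb that met no replicate 1 peak were 0.286% of the AC220 2 list (395 peaks) and 1.54% of the DMSO 2 list (1780 peaks). Their median fold was 2.16 in AC220 2 and 2.12 in DMSO 2.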
